A study of Homo sapiens with 6 samples.

Results

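The tricarboxylic acid (TCA) cycle, the entry of pyruvate into it and the use of glutamate and glutamine that feeds it were examined through 32 genes in A2780, a human ovarian cancer cell line. The genes were fixed by name, as enzymes, enzyme subunits and mitochondrial carriers of these routes, and each was found once among the 44591 genes counted in every library. Polyadenylated RNA had been sequenced in 3 untreated libraries and in 3 libraries from cells given recombinant human CRMP2 (r-CRMP2) in the medium at 40 ng/ml, all labelled 48 h and wild type and grown in DMEM with serum. The labels name no vehicle for the untreated cultures and do not say whether the replicates were separate cultures started independently, so the p-values measure the spread between these libraries, which may be technical. The question was how the genes of mitochondrial carbon oxidation behaved under a treatment that the study examined for its effect on hypoxia and glycolysis signaling.

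In the cycle, acetyl-CoA and oxaloacetate are joined to citrate, which is oxidized step by step back to oxaloacetate while electrons pass to NADH and other carriers for respiration. Pyruvate enters through the pyruvate dehydrogenase complex, and glutamine enters as glutamate and then 2-oxoglutarate. Several steps have a mitochondrial and a cytosolic isozyme coded by separate genes, and citrate and malate that leave the mitochondrion feed lipid synthesis and NADPH supply in the cytosol. Low oxygen is known to restrain pyruvate entry through kinases that phosphorylate pyruvate dehydrogenase.

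Libraries held between 21888530 and 25711353 counts. Every pair of replicates was further apart than sampling noise allows (chi-square over degrees of freedom of 3.62 to 10.3), so each library counted as 1 sample. TMM factors, which correct the library totals for unequal RNA composition, lay between 1.10 and 1.12 in untreated libraries and between 0.878 and 0.922 in r-CRMP2 libraries. Among epithelial and ovarian carcinoma markers, KRT7, KRT8 and KRT18 were abundant, while CDH1, WT1 and ESR1 were below the filter on low counts and PAX8 stood at a mean of 4.06 normalised CPM (counts scaled to library totals corrected with TMM) in untreated libraries. The 10 epithelial markers summed to between 3193 and 3268 CPM in untreated libraries and between 3204 and 3470 CPM in r-CRMP2 libraries. Of the 7 that were tested as described below, 1 was higher (KRT18) and 2 were lower (KRT7 and MUC16). The 10 fibroblast markers summed to between 606 and 680 CPM in untreated libraries and between 529 and 553 CPM in r-CRMP2 libraries. FAP was below the filter, and of the 9 tested, 3 were higher and 3 lower. Of all genes tested, 28.2% were higher and 30.1% lower. The part of these markers in the results was not tested.

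Of the 32 genes, 19 did not pass the test, and the 13 that did moved in both directions. GLS2, IDH1, OGDH, PDHB, DLAT and SLC25A10 were lower in r-CRMP2 libraries, and GLUD1, IDH2, SUCLG2, IDH3G, ME3, IDH3B and CS were higher with TMM scaling, of which CS and IDH3B changed sign with library size alone. The test was edgeR's quasi-likelihood test over the 16222 genes that passed the low-count filter, which all 32 members did, at an adjusted p-value threshold of 0.05 with TMM scaling. Thus 7 members (21.9%) were higher and 6 (18.8%) lower, beside 28.2% and 30.1% of all genes tested. With the additional log2 fold change threshold of 1 that the study used, 0 members were higher and 3 (GLS2, IDH1 and OGDH) were lower, beside 5.12% and 8.86% of all genes tested. The groups did not overlap for 19 members (59.4%), beside 64.2% of all genes tested. The median log2 fold change of the members was 0.002, beside -0.03 over all genes tested. The counts of members above include GLS2, which passed the low-count filter through the untreated libraries alone. With at least 10 counts required in every library, GLS2 was left out, and 7 members were higher and 5 lower.

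The choice of scaling shifted every value by about the same amount. When library totals were used without TMM, the median log2 fold change of all genes tested was -0.34 and that of the members was -0.31, and 3 members were higher and 24 lower, beside 13.4% and 52.1% of all genes tested. Of all genes called, 48.4% were higher with TMM and 20.4% with library size alone. Relative to the median of all genes, the members' median stood at 0.0285 with TMM and 0.0273 with library size alone. GLS2, IDH1, OGDH, PDHB, DLAT and SLC25A10 were lower, and GLUD1, IDH2 and SUCLG2 higher, under TMM, RLE, upper-quartile and library-size scaling and in DESeq2. With library size alone the log2 fold changes of GLUD1, IDH2 and SUCLG2 were 0.34, 0.29 and 0.27, and those of DLAT and SLC25A10 were -0.68 and -0.51. For the other rising members, IDH3G (0.10) and ME3 (0.02) did not pass the threshold with library size alone, IDH3B changed sign without passing it (-0.07), and CS was called in the opposite direction (-0.16, adjusted p = 0.0221, edgeR).

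**Figure D1:**
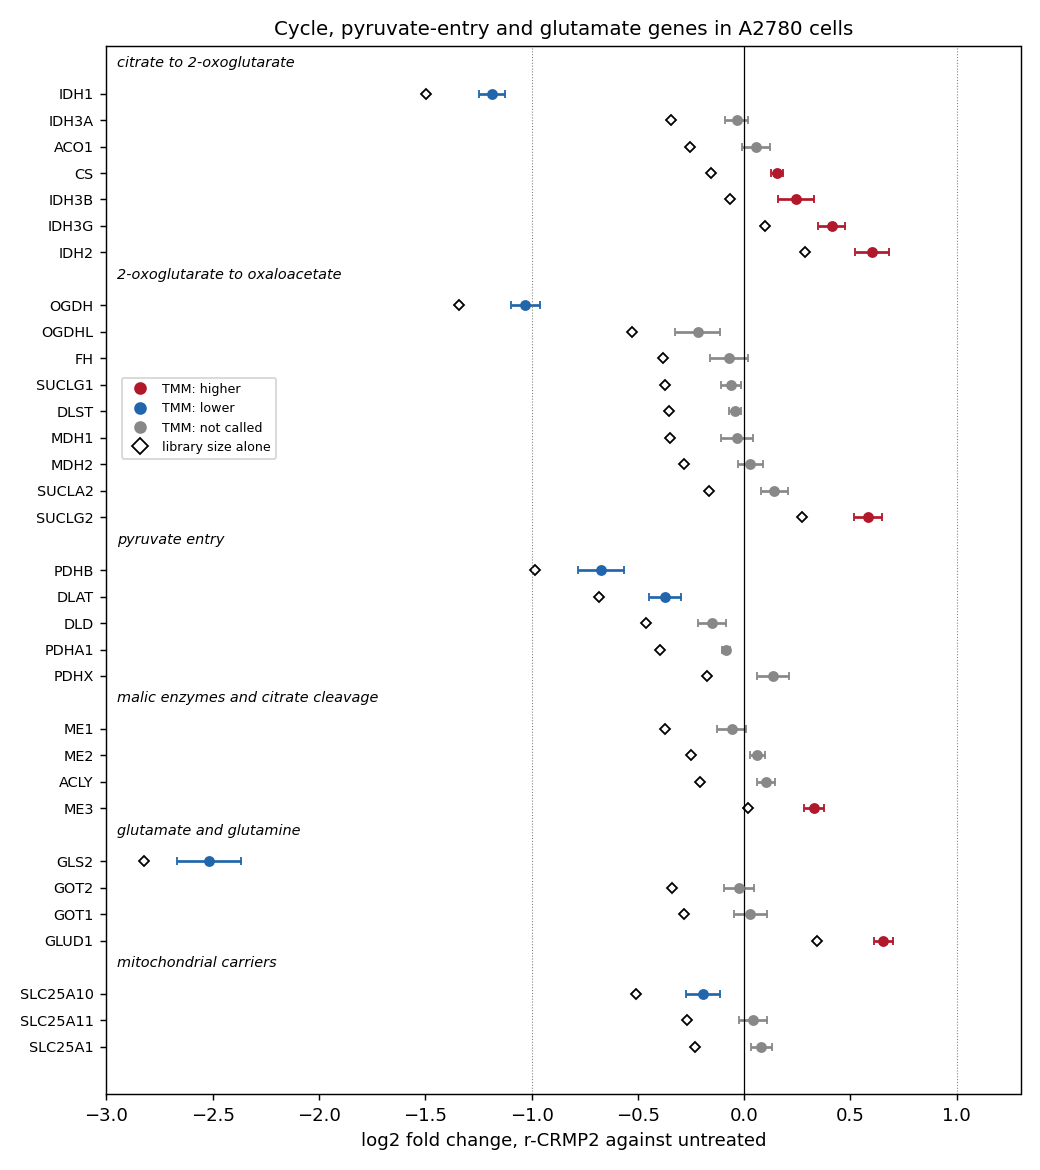
Log2 fold change (r-CRMP2 against untreated, x axis) of the 32 genes, ordered within each metabolic role, with filled points and bars for the TMM estimate and 1 standard error (coloured by call at an adjusted p-value under 0.05), open diamonds for library size alone and dotted lines at 1 in each direction. Only GLS2, IDH1 and OGDH lie past a dotted line among the filled points, and the diamonds sit to the left of the filled points throughout.

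The promoter sequences of genes at the ends of this range are shown because the treatment was studied through HIF-1, whose DNA core motif is ACGTG or GCGTG. They are from RefSeq (GRCh38.p14), cover the 250 bases before the annotated start, and run 5′ to 3′ on the gene's strand, with capitals marking either core motif on either strand. GLS2 lies on the minus strand at chr12:56488162-56488411, IDH1 on the minus strand at chr2:208255072-208255321, PDHB on the minus strand at chr3:58433833-58434082 and GLUD1 on the minus strand at chr10:87094844-87095093. The first 3 genes were lower with r-CRMP2 and GLUD1 was higher.
GLS2: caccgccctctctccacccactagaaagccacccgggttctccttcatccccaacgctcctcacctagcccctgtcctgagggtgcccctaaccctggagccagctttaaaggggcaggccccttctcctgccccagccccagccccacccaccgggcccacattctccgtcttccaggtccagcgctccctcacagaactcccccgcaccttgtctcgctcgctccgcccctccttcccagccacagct
IDH1: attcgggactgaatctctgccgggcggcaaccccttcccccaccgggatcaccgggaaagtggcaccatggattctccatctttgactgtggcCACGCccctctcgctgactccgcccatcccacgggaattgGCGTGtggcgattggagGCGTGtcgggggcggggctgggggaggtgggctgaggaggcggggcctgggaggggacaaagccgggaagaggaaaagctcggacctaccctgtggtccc
PDHB: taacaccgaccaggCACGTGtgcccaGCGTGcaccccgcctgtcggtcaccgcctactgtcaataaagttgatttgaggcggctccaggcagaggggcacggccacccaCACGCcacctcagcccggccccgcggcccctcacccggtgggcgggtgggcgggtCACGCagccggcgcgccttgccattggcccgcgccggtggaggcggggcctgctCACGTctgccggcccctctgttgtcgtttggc
GLUD1: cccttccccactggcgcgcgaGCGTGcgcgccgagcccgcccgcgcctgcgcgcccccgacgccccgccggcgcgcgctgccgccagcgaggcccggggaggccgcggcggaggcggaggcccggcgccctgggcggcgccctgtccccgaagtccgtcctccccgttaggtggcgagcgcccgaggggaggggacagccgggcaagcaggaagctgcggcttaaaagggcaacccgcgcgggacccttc

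The GLS2 stretch held 0 core motifs, IDH1 held 3, PDHB held 6 and GLUD1 held 1. The same stretches of DLAT (lower), IDH2 and SUCLG2 (both higher), which are not printed, held 3, 1 and 0. Matches to CACGTG, which holds ACGTG on both strands, count under each strand. Promoter windows of 300 bases (250 before and 50 after the start) were matched for 31 of the 32 genes, the exception being OGDH. Where a gene had more than 1 window, as IDH1 with 2, the most upstream was used. The start in the IDH2 window lay 1847 bases from the 5′ end of the annotated gene. GCGTG was present in 22 of the 31 windows (71.0%), in 36.4% of 27305 windows of all genes and in 50.4% of the 10520 windows of genes tested here. ACGTG was present in 6 member windows (19.4%), in 21.6% of all windows and in 26.5% of those of genes tested. The E-box CACGTG was present in 3 member windows (ME3, OGDHL and PDHB), which is 9.7%, beside 7.4% of all windows and 10.0% of those of genes tested. The estrogen-related receptor element TCAAGGTCA was found in 0 member windows, in 0.4% of all windows and in 0.2% of those of genes tested. Either HIF core was present in 23 member windows (74.2%), in 48.4% of all windows and in 62.8% of those of genes tested. It was present in 5 of 7 windows of members that were higher, in 4 of 5 of those that were lower and in 14 of 19 of those not called. A motif match describes the letters of the window and does not show binding.

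From citrate to 2-oxoglutarate, the cytosolic IDH1 fell while the mitochondrial IDH2 rose. IDH1 (hg19 chromosome 2, 209100951 to 209119867, minus strand) makes 2-oxoglutarate and NADPH in the cytosol. Its normalised CPM was 103, 91.4 and 99.5 without treatment and 44.6, 41.5 and 43.2 with r-CRMP2. Every treated library was thus well below every untreated library, at 0.439 times the untreated level. In bulk RNA, fewer cells expressing a gene and less RNA per cell cannot be told apart. The log2 fold change was -1.19 ± 0.06 (standard error, SE) at an adjusted p = 4.67e-11 (edgeR). IDH2 (chromosome 15, 90627210 to 90645786, minus strand), which catalyzes the same reaction in mitochondria, stood at 108, 111 and 103 CPM in untreated and 148, 176 and 165 CPM in r-CRMP2 libraries. The groups were again apart, in the opposite direction, with a log2 fold change of 0.60 ± 0.08 (SE) at an adjusted p = 4.41e-07 (edgeR).

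The NAD-dependent isocitrate dehydrogenase of the cycle is assembled from alpha, beta and gamma subunits, whose log2 fold changes ran from -0.03 to 0.41 with TMM. IDH3G, the gamma subunit (chromosome X, 153051221 to 153059978), stood at 91.8, 87.3 and 84.8 CPM in untreated and 112, 126 and 114 CPM in r-CRMP2 libraries, without overlap. Its log2 fold change was 0.41 ± 0.06 (SE) at an adjusted p = 2.63e-05 (edgeR) with TMM and 0.10 (adjusted p = 0.164, edgeR) with library size alone. IDH3B, the beta subunit, had a log2 fold change of 0.25 (adjusted p = 0.00802, edgeR) with TMM and -0.07 with library size alone. IDH3A, the catalytic alpha subunit, had -0.03 (adjusted p = 0.673, edgeR). In the deposited positions IDH3G overlaps SSR4 and IDH3B overlaps NOP56, each on the opposite strand, and the library kit that the study names does not mark strand. SSR4 rose (log2 fold change 0.75, adjusted p = 9.66e-09, edgeR) and NOP56 fell (-0.66, adjusted p = 1.69e-07, edgeR), so the counts of both members are uncertain where reads lie in the shared stretch. CS, the citrate synthase that opens the cycle, had a log2 fold change of 0.15 (adjusted p = 0.0310, edgeR). That call was lost with the replicate block (adjusted p = 0.0670, edgeR), with upper-quartile factors (0.127), without a low-count filter (0.121), and without untreated replicate 1 (0.105), 2 (0.0754) or 3 (0.0521) or r-CRMP2 replicate 3 (0.0771). ACO1, the cytosolic aconitase that also binds iron-responsive RNA elements, had a log2 fold change of 0.06 (adjusted p = 0.542, edgeR).

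From 2-oxoglutarate to oxaloacetate, OGDH fell, SUCLG2 rose and the remaining 7 genes did not pass the threshold. OGDH (chromosome 7, 44646121 to 44748669, plus strand) codes for the E1 subunit of the 2-oxoglutarate dehydrogenase complex, which turns 2-oxoglutarate into succinyl-CoA. Its CPM was 196, 196 and 211 without treatment and 98.9, 91.4 and 105 with r-CRMP2. All treated libraries were below all untreated ones, at 0.490 times the untreated level, with a log2 fold change of -1.03 ± 0.07 (SE) at an adjusted p = 2.12e-10 (edgeR). Its value sat at the fold change threshold, and was -0.99 without untreated replicate 3 and -0.97 without r-CRMP2 replicate 2. DLST, the E2 subunit of the same complex, was at a mean of 87.4 CPM in untreated and 84.7 CPM in r-CRMP2 libraries (log2 fold change -0.04, adjusted p = 0.561, edgeR). OGDHL, a related E1 protein, ranged from 10.7 to 13.1 CPM in untreated and from 9.23 to 10.6 CPM in r-CRMP2 libraries. Its log2 fold change was -0.22 (adjusted p = 0.120, edgeR), and it was called lower with library size alone (-0.53, adjusted p = 0.00111, edgeR).

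Succinyl-CoA ligase pairs the alpha subunit, SUCLG1, with either the ADP-forming beta subunit SUCLA2 or the GDP-forming beta subunit SUCLG2. SUCLG2 (chromosome 3, 67410884 to 67705038, minus strand) stood at 53.4, 57.0 and 57.1 CPM in untreated and 80.4, 90.3 and 80.2 CPM in r-CRMP2 libraries. The treated libraries were all higher, by 49.7% on average, with a log2 fold change of 0.58 ± 0.07 (SE) at an adjusted p = 6.12e-07 (edgeR). SUCLA2 had a log2 fold change of 0.14 (adjusted p = 0.153, edgeR) and SUCLG1 of -0.06 (adjusted p = 0.457, edgeR). FH, the fumarase, and the cytosolic and mitochondrial malate dehydrogenases MDH1 and MDH2 had log2 fold changes of -0.07, -0.04 and 0.03. Their untreated and treated libraries overlapped, and adjusted p-values from edgeR lay between 0.416 and 0.717.

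At pyruvate entry, PDHB and DLAT fell, and no subunit rose at the threshold. The pyruvate dehydrogenase complex is built from the E1 subunits PDHA1 and PDHB, the E2 subunit DLAT, the E3 subunit DLD and the E3-binding protein PDHX. PDHB (chromosome 3, 58413357 to 58419579, minus strand) stood at 36.1, 33.5 and 38.8 CPM in untreated and 22.6, 25.3 and 20.4 CPM in r-CRMP2 libraries. The groups were clearly apart, with treated cells at 0.627 times the untreated level and a log2 fold change of -0.67 ± 0.11 (SE) at an adjusted p = 2.73e-06 (edgeR). DLAT stood at 42.9, 40.5 and 43.2 CPM in untreated and 30.8, 31.0 and 35.8 CPM in r-CRMP2 libraries, a log2 fold change of -0.37 ± 0.08 (SE) at an adjusted p = 4.04e-04 (edgeR). PDHA1, the partner of PDHB in E1, had -0.09 (adjusted p = 0.215, edgeR), DLD had -0.15 (adjusted p = 0.0850, edgeR) and PDHX had 0.14 (adjusted p = 0.144, edgeR). DLD is shared with the 2-oxoglutarate dehydrogenase complex and passed the threshold with upper-quartile factors (-0.20, adjusted p = 0.0237, edgeR). PDHX overlaps APIP on the opposite strand, which was counted at 27.2% of the level of PDHX.

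Among the enzymes that divert malate and citrate, ME3 rose with TMM scaling and the others did not pass the threshold. The malic enzymes turn malate into pyruvate, ME1 in the cytosol and ME2 and ME3 in mitochondria. ME3 stood at 19.3, 19.8 and 19.0 CPM in untreated and 25.1, 25.1 and 22.9 CPM in r-CRMP2 libraries. These values did not overlap, and the log2 fold change was 0.33 ± 0.05 (SE) at an adjusted p = 0.00211 (edgeR), but 0.02 (adjusted p = 0.856, edgeR) with library size alone. ME1 had -0.06, ME2 0.06 and ACLY, which cleaves exported citrate to acetyl-CoA for lipid synthesis, 0.10 (adjusted p = 0.157, edgeR).

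In the glutamine and glutamate branch, GLS2 had the lowest log2 fold change of the members and GLUD1 the highest. GLS2 (chromosome 12, 56864728 to 56882198, minus strand) codes for liver-type glutaminase, which releases glutamate from glutamine. It was counted 72, 52 and 49 times without and 8, 7 and 9 times with r-CRMP2. It passed the low-count filter through the 3 untreated libraries alone, with 0 treated libraries above the limit of 0.42 CPM, so that a difference was built into its entry to the test. The other 31 members were above the limit in every library. In normalised CPM this was 2.59, 2.12 and 1.79 against 0.374, 0.354 and 0.392. Treated cells held 0.175 times the untreated level, with a log2 fold change of -2.52 ± 0.15 (SE) at an adjusted p = 2.46e-06 (edgeR), and per length the gene was the least abundant of the 32. GLS2 overlaps SPRYD4 on the opposite strand, which was counted more often than GLS2 and also fell (log2 fold change -0.87, adjusted p = 3.77e-05, edgeR). The part of SPRYD4 reads in the GLS2 counts was not tested.

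GLUD1 (chromosome 10, 88809959 to 88854804, minus strand) codes for glutamate dehydrogenase, which converts glutamate to 2-oxoglutarate. Its CPM was 119, 117 and 120.4 in untreated libraries and 176, 195 and 188 in r-CRMP2 libraries. Each treated library exceeded each untreated library, with a level 1.57 times as high and a log2 fold change of 0.65 ± 0.04 (SE) at an adjusted p = 3.54e-08 (edgeR). The pseudogene rows of GLUD1 were counted at 0.962% of its level or less, and GLUD2, a near copy, was below the low-count filter. The aspartate aminotransferases GOT1 (cytosolic) and GOT2 (mitochondrial), which exchange amino groups between glutamate and oxaloacetate and serve the malate-aspartate shuttle, had log2 fold changes of 0.03 and -0.03 (adjusted p = 0.757 and 0.767, edgeR).

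Of the mitochondrial carriers, SLC25A10, the dicarboxylate carrier, was slightly lower. It stood at 106, 111 and 119 CPM in untreated and 89.8, 102 and 101 CPM in r-CRMP2 libraries, close to each other but without overlap. The log2 fold change was -0.19 ± 0.08 (SE) at an adjusted p = 0.0215 (edgeR). The call was lost without untreated replicate 2 (adjusted p = 0.0524, edgeR) or 3 (0.134) and without r-CRMP2 replicate 1 (0.152). SLC25A1, the citrate carrier, had 0.08 (adjusted p = 0.279, edgeR) and SLC25A11, the 2-oxoglutarate carrier, 0.04 (adjusted p = 0.638, edgeR). SLC25A11 overlaps RNF167 on the opposite strand.

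**Figure D2:**
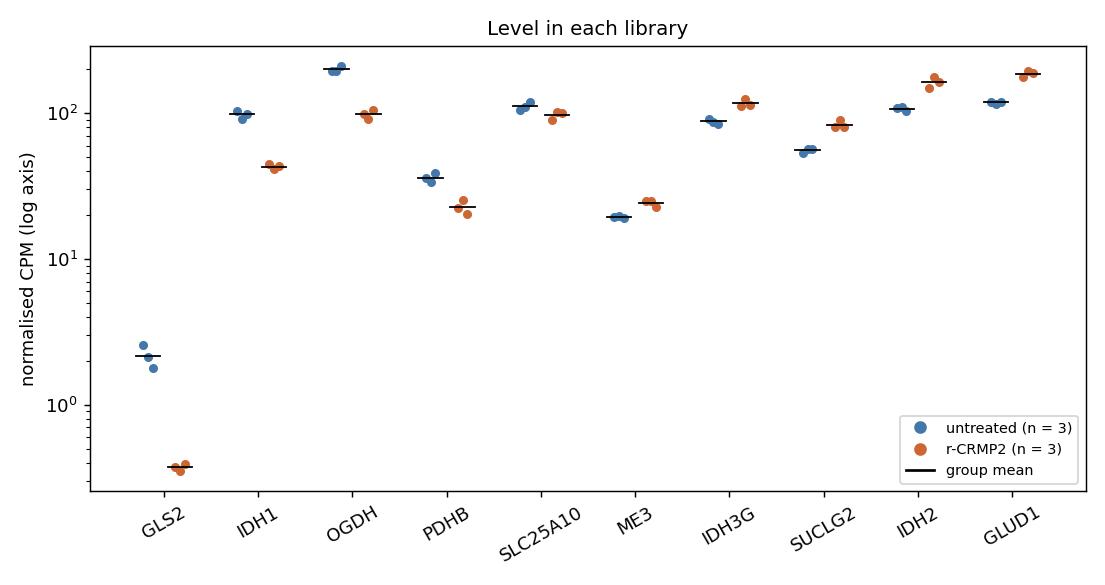
Normalised CPM (y axis, log scale) in each of the 3 untreated (blue) and 3 r-CRMP2 (orange) libraries for 10 genes, with a black bar at each group mean. The 10 genes were all taken from the members that passed the test. The groups do not overlap for any of them, beside 64.2% of all genes tested without overlap. The widest gap is in GLS2, from 1.79 to 2.59 CPM in untreated and 0.354 to 0.392 CPM in r-CRMP2 libraries. GLS2 passed the low-count filter through the untreated libraries alone.

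Between libraries, the 32 genes together took 0.323%, 0.324% and 0.339% of all counts without and 0.263%, 0.271% and 0.270% with r-CRMP2. Scaled with TMM, their summed level was 2951, 2893 and 3028 CPM without and 2861, 3085 and 3026 CPM with r-CRMP2, which overlapped. The share of raw counts and the TMM-scaled sum therefore differed in whether the groups were apart. In TPM, a transcript level per gene length, the untreated means ran from 1.94 ± 0.335 (SD, n = 3) for GLS2 to 195 ± 0.489 (SD, n = 3) for ACLY. MDH2 followed ACLY at 194 ± 7.43 TPM (SD, n = 3), and the 2 did not differ beyond this spread. OGDH was at 101 ± 4.72 TPM (SD, n = 3) in untreated cells against 6.90 ± 0.837 TPM (SD, n = 3) for OGDHL. TPM is not corrected for RNA composition, so its levels between groups carry the shift described for library size.

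Ratios of 2 genes within a library do not depend on scaling between libraries, and 12 such pairs were compared. For 6 pairs the groups did not overlap. Among single genes tested, 64.2% did not overlap, and no share over other pairs of genes was computed. IDH1 per IDH2, both corrected for length, had log2 ratios of -0.64, -0.86 and -0.64 without and -2.31, -2.67 and -2.51 with r-CRMP2. The ratio therefore went from 0.609 to 0.177, a log2 difference of -1.78 (standard error 0.13). GLS2 per GLUD1 differed by -2.90 (standard error 0.16) and OGDHL per OGDH by 0.82 (standard error 0.15). The GLS2 ratio rests on 7 to 9 counts of GLS2 in treated libraries, and its difference was -3.17 with a prior count of 0. SUCLG2 per SUCLA2 went from 2.03 to 2.75, a log2 difference of 0.43 (standard error 0.10). Smaller differences without overlap were seen for SLC25A10 per SLC25A11 (-0.24) and PDHX per PDHA1 (0.23). For each of these 6 pairs the two-sided exact permutation test gave p = 0.1, adjusted p = 0.2 over the 12 pairs, and 0.1 is the smallest value that 3 against 3 libraries allow. MDH1 per MDH2 (-0.07), GOT1 per GOT2 (0.06), ME1 per ME2 (-0.12), ACLY per CS (-0.05), FH per MDH2 (-0.10) and IDH3B per IDH3A (0.27) overlapped between the groups, with exact permutation p-values between 0.2 and 0.4.

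**Figure D3:**
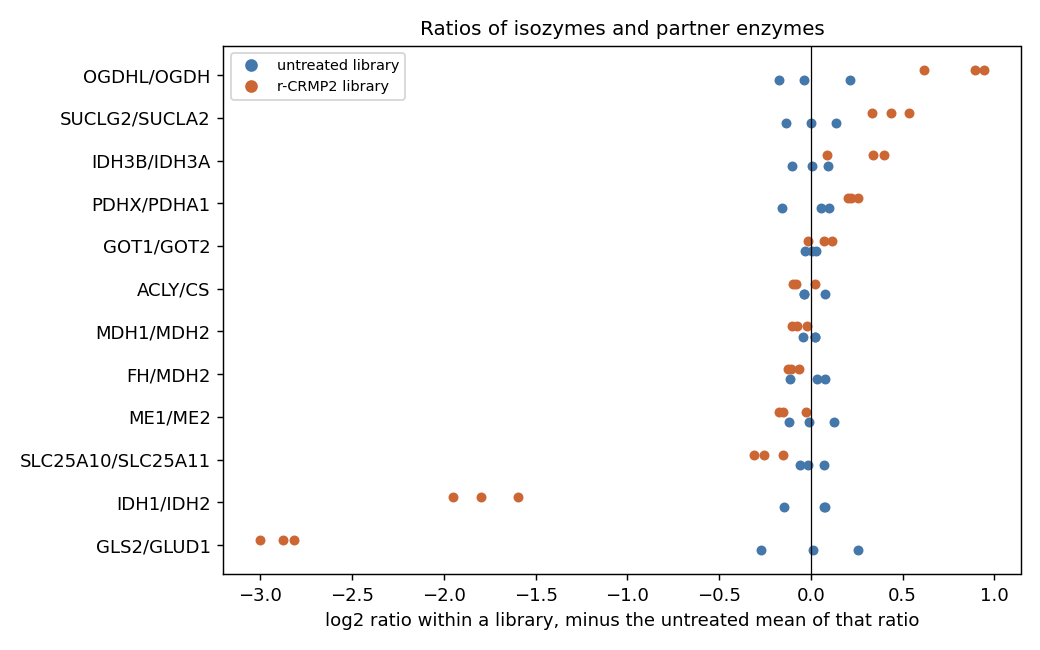
Log2 ratio of 2 length-corrected counts within each library, minus the untreated mean of that ratio (x axis), for 12 pairs of genes. Blue points are the 3 untreated and orange points the 3 r-CRMP2 libraries. The r-CRMP2 points of GLS2/GLUD1 and IDH1/IDH2 lie far to the left, with mean differences of -2.90 and -1.78, and those of OGDHL/OGDH to the right at 0.82.

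Further genes around the cycle, from a list of 41, were counted in the same fit. Of these, 38 passed the low-count filter, 8 (21.1%) were higher and 10 (26.3%) lower at the adjusted p-value threshold of 0.05, beside 28.2% and 30.1% of all genes tested. Of the kinases of pyruvate dehydrogenase, 3 rose and 1 fell. PDK1, a kinase that inactivates the complex and a known HIF-1 target, rose by 1.46 on the log2 scale (adjusted p = 3.33e-12, edgeR). Its mean was 36.9 ± 1.23 CPM (SD, n = 3) in untreated and 102 ± 6.79 CPM (SD, n = 3) in r-CRMP2 libraries. PDK4 had a log2 fold change of 0.92 (adjusted p = 3.14e-08, edgeR) and PDK3 of 0.55 (adjusted p = 9.33e-06, edgeR), whereas PDK2 fell (-0.23, adjusted p = 0.0104, edgeR). The phosphatase PDP2, which reactivates the complex, rose by 0.53 on the log2 scale (adjusted p = 2.96e-05, edgeR), while PDP1 had -0.18 (adjusted p = 0.115, edgeR). PDPR, the regulatory subunit of the phosphatase, fell (-0.35, adjusted p = 7.37e-04, edgeR), also with library size alone (-0.65). PDK1, PDK3, PDK4 and PDP2 were also called higher with library size alone, at log2 fold changes of 1.15, 0.24, 0.61 and 0.22.

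Pyruvate carboxylase (PC), which makes oxaloacetate from pyruvate, was 173 ± 3.02 CPM (SD, n = 3) in untreated and 119 ± 2.68 CPM (SD, n = 3) in r-CRMP2 libraries. It fell by 0.54 on the log2 scale (adjusted p = 2.74e-07, edgeR). GPT2, the mitochondrial alanine aminotransferase, rose (log2 fold change 0.91, adjusted p = 3.85e-09, edgeR), and the cytosolic GPT fell (-0.50, adjusted p = 0.0167, edgeR). SLC25A13, an aspartate-glutamate carrier of the malate-aspartate shuttle, fell by 1.07 on the log2 scale (adjusted p = 1.67e-09, edgeR). SLC38A2, a neutral amino acid transporter that carries glutamine, also fell (-0.58, adjusted p = 9.45e-05, edgeR). SDHA, the flavoprotein subunit of succinate dehydrogenase, had a log2 fold change of 0.62 (adjusted p = 8.72e-08, edgeR). SDHA was at a mean of 730 CPM in untreated and 1119 CPM in r-CRMP2 libraries. Its copies share sequence with it and were counted far less, SDHAP1 at 15.3 and 32.1 CPM, SDHAP2 at 10.2 and 11.7 CPM and SDHAP3 at 5.72 and 3.59 CPM. Their log2 fold changes were 1.07, 0.21 (adjusted p = 0.213, edgeR) and -0.67, and how reads were split between SDHA and its copies is uncertain. SDHB, SDHC and SDHD had values between -0.03 and 0.01 that did not pass the threshold.

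**Figure D4:**
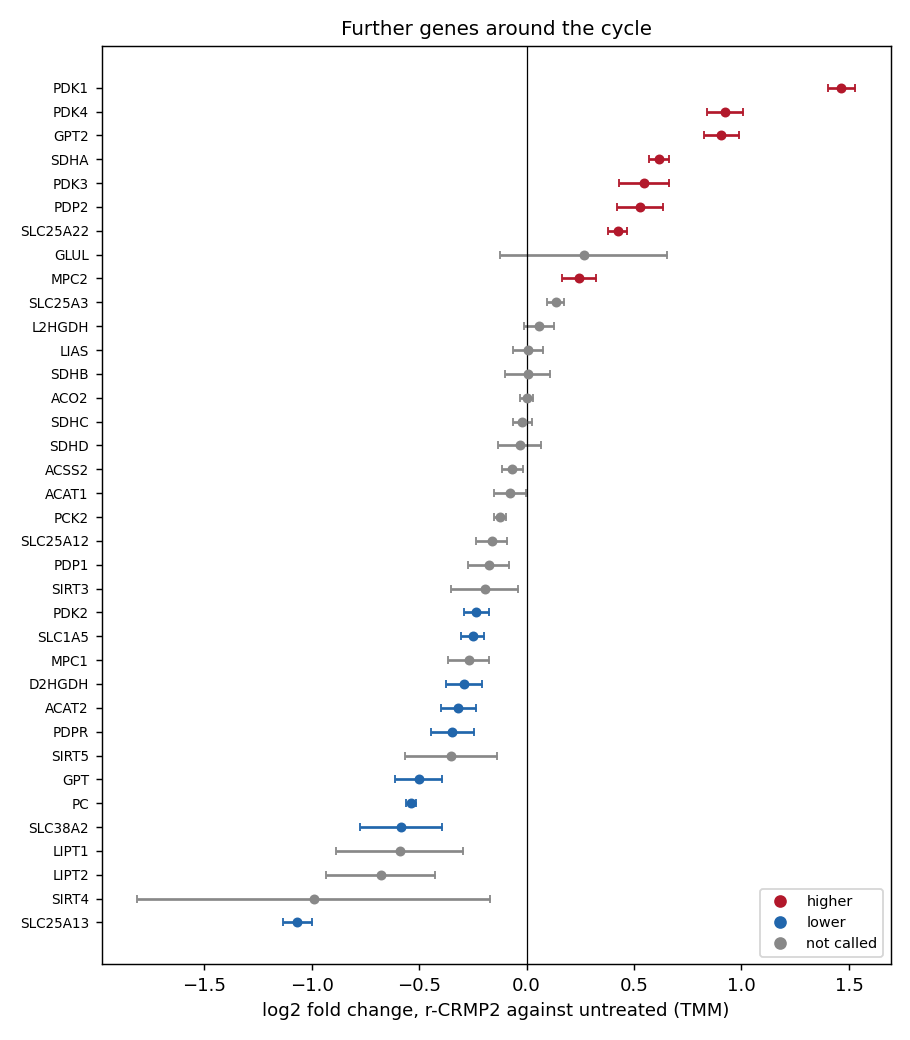
TMM-scaled log2 fold change (r-CRMP2 against untreated, x axis) of 36 of the further genes that passed the low-count filter, with bars of 1 standard error. Red points are the 8 genes called higher, blue points 9 called lower and grey points those not called at an adjusted p-value under 0.05. PDK1 has the largest rise (1.46) and SLC25A13 the largest called fall (-1.07).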

How the data were processed

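Gene expression was measured by paired-end sequencing of poly(A) RNA in 6 libraries of A2780 cells, 3 untreated and 3 r-CRMP2. The authors deposited a raw count per gene and, beside it, TPM. Recomputing TPM from counts and the deposited gene lengths left a largest difference of 4.72e-06. The submitters' processing notes name FastQC, HISAT2, DESeq2 and hg19, and the counting tool, annotation and strand setting are not given in the sources used here. Member positions are as deposited (hg19), and promoters are RefSeq (GRCh38.p14).

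Counts were fitted with edgeR 4.0.16 (limma 3.58.1, R 4.3.3) over all genes, with TMM factors, edgeR's low-count filter, the quasi-likelihood test and Benjamini-Hochberg adjustment. Standard errors are from log2 CPM with a prior count of 2. Normalised CPM uses TMM-scaled totals. The test was checked on simulated counts. Alternatives were RLE, upper-quartile and library-size scaling, no filter, at least 10 counts in every library, DESeq2 1.42.0, a replicate block, leaving out each library, and for the ratios a prior of 0 and deposited TPM. Members with an adjusted p-value under 0.05 and an absolute log2 fold change of at least 0.4, and the largest change of each role, are given by library, and DLAT and OGDHL were added after their values were seen. Further genes are named past 0.5, and PDK2, PDP1, PDPR, SDHB, SDHC, SDHD and GLUD2 were also added then. Of the further genes tested, 2 are counted but not reported here. The members and lists were chosen with earlier results of these data known.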

Additional observations from a re-analysis of the deposited data

How the results depend on the processing

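Beside the 7 members higher and 6 lower, the study's fold change threshold left 0 and 3, and of the further genes (8 and 10) it left 1 and 1. Library size alone gave 3 and 24 members and 6 and 29 further genes, beside 13.4% higher and 52.1% lower of all genes tested. The members' median (0.002) was -0.31 with library size alone, -0.0451 with upper-quartile factors and -0.0073 without a low-count filter, and ranged from -0.0332 to 0.054 when 1 library at a time was left out. Library size alone reversed the sign of CS (-0.16), ACO1 (-0.26), IDH3B (-0.0668), SUCLA2 (-0.17), MDH2 (-0.28), PDHX (-0.17), ME2 (-0.25), ACLY (-0.21), GOT1 (-0.28), SLC25A1 (-0.23) and SLC25A11 (-0.27). Upper-quartile factors reversed MDH2 (-0.0179), GOT1 (-0.0176) and SLC25A11 (-0.0070). The median of all genes tested moved alongside with library size alone (-0.34) and upper-quartile factors (-0.0741). With RLE factors it also moved alongside, to -0.0063, beside 0.0225 for the members. In some other settings it moved by a different amount or in the other direction. Without a low-count filter it was -0.0982, beside -0.0073 for the members. Without r-CRMP2 replicate 1 it was -0.0335, beside 0.054 for the members.

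With 1 library left out in turn, the members not called that changed sign were MDH1 (-0.083 to 0.0337), MDH2 (-0.0083 to 0.0817), GOT1 (-0.0264 to 0.0673), GOT2 (-0.0655 to 0.0407) and IDH3A (-0.0751 to 0.0018). Members higher ranged from 6 to 7 and members lower from 5 to 6. The same-numbered libraries of the groups did not deviate together (correlations across genes of -0.021, 0.004 and -0.025), so the numbers give no pairing. With the replicate number as a block, 6 members were higher and 6 lower, the median was 0.0014, and CS was the member whose call changed. Of the 13 called members, 8 kept their call in each alternative that could be run. RLE factors and DESeq2 changed no member's call. GLS2 had under 10 counts in treated libraries, so the stricter filter left it out, and its fold change is less precise than those of the abundant members. No ratio changed sign under its alternatives.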
